A study of Rattus norvegicus with 12 samples.

Results

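The effect of the weaning diet on the islet transcriptome was measured across both kinds of mother, by comparing the 6 libraries of rat offspring weaned onto a high-fat-sucrose diet (HFS) with the 6 weaned onto a low-fat diet (LF). All 12 of the 12 libraries of the series entered the comparison, which was defined by the weaning diet in the labels, with the diet of the dam as a block. All 17407 genes of the deposited table were eligible and 12336 passed the filter on low values and were tested. Sprague-Dawley dams, 6 per diet, received LF diet (10% fat) or HFS diet (45% fat) from 6 weeks before mating until the end of suckling, and the labels call these dams lean and GDM, for gestational diabetes mellitus. Pups were weaned onto either diet for 12 weeks and their islets were isolated at 15 weeks of age. The HFS side joined Lean-HFS (lean dam, HFS weaning) and GDM-HFS (GDM dam, HFS weaning), and the LF side joined Lean-LF and GDM-LF, with 3 libraries in each group. On each side 3 of the 6 libraries thus came from offspring exposed to HFS diet before weaning. The labels state neither the fat content of the weaning diets nor the sex or litter of each animal. The p-values therefore reflect the spread among these 12 libraries, some of which may share a litter.

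Pancreatic islets hold insulin-secreting beta cells together with alpha, delta and PP cells that secrete glucagon, somatostatin and pancreatic polypeptide. Beta cells sense glucose through its breakdown and mitochondrial ATP production. A diet rich in fat and sugar raises the demand for insulin, and islets are known to respond with more beta cell mass, greater insulin synthesis, oxidation and storage of fatty acids, and, under overload, stress of the endoplasmic reticulum and local inflammation.

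Insulin transcripts (Ins1 and Ins2) made up 22.0% to 34.4% of the reads outside ribosomal RNA (rRNA) in the 12 libraries, and none of the 17 hormone and granule peptide genes or the 23 beta cell genes found in the table was listed at 0 in all libraries. The libraries held 11469290 to 27492858 reads over genes. rRNA took 1.84% to 30.4% of them on the LF side and 1.84% to 39.0% on the HFS side. Of the 12 libraries, 3 bear the letter K in their titles where the others bear G, with no stated meaning: GDM-LF 1, GDM-LF 2 and GDM-HFS 3. Markers of digestive enzyme (acinar) cells were present in every library and summed to 814079 in GDM-LF 2, against 33045 to 94847 in the Lean-LF group. In whole islets, fewer cells of a type and less RNA per cell cannot be told apart.

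No gene differed between offspring weaned onto HFS and onto LF diet at an adjusted p under 0.05 in limma, 0 of 12336 (0%), and the lowest adjusted p was 0.907. At an unadjusted p under 0.05 there were 590 genes (4.78% of those tested), 296 higher on HFS (2.4%) and 294 lower (2.38%). edgeR on the recovered reads called 0 genes, with a lowest adjusted p of 0.932 and 541 genes (4.39%) at an unadjusted p under 0.05. DESeq2 called 2 of 12240 genes (0.0163%), both higher on HFS and Fam111a among them, and placed 640 (5.23%) at an unadjusted p under 0.05. In the same limma fit the diet of the dam was past the threshold for 1438 genes (11.7%), with 3760 (30.5%) at an unadjusted p under 0.05. The count of 590 came to 1046 without Lean-LF 3, 891 without GDM-LF 2, 394 without Lean-LF 2, 390 without GDM-LF 1 and 320 without GDM-HFS 3, with 0 genes past the adjusted threshold each time.

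The width of the intervals says which sizes of difference these libraries could show. The median standard error (SE) of the log2 difference was 0.191 and the median half-width of its 95% interval was 0.41. For 9681 of the tested genes (78.5%) the interval lay within a 2-fold difference in either direction. This held for 96.3% of the 5513 genes with a mean scaled value of 100 or more, and for 27.5% of the 2278 genes with a mean between 1 and 10.

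The 24 genes of lowest p among those with the same sign in both kinds of offspring, 14 higher and 10 lower on HFS, all had an adjusted p of 0.907 by limma. Their order is a ranking of values and not a set of calls. Low p and a shared sign were both part of the choice. Separation of the libraries in these genes thus follows in part from the choice and gives no support to them. The HFS and LF libraries did not overlap for 942 tested genes (7.64%) in offspring of lean dams and for 1732 (14%) in offspring of GDM dams. In 8 of the 24 genes the HFS and LF libraries did not overlap in either kind of dam, in the same direction. Over all tested genes this held for 41 (0.332%), 20 higher (0.162%) and 21 lower (0.17%), while 58 (0.47%) were separated in opposite directions in the offspring of lean and of GDM dams. Separation in opposite directions was thus more frequent than in the same direction. No overlap over all 12 libraries was seen for 13 genes (0.105%), of which those named here were chosen after their values were seen. The 9 that were higher on HFS (0.073%) included Gdpd1, Mpg, Spint2, Dclk3, Cdk2ap1, Hsd17b4, Mrps15 and Enpp2, and the 4 that were lower (0.0324%) were Cpm, Ahctf1, Nrxn3 and Jmjd1c.

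**Figure D1:**
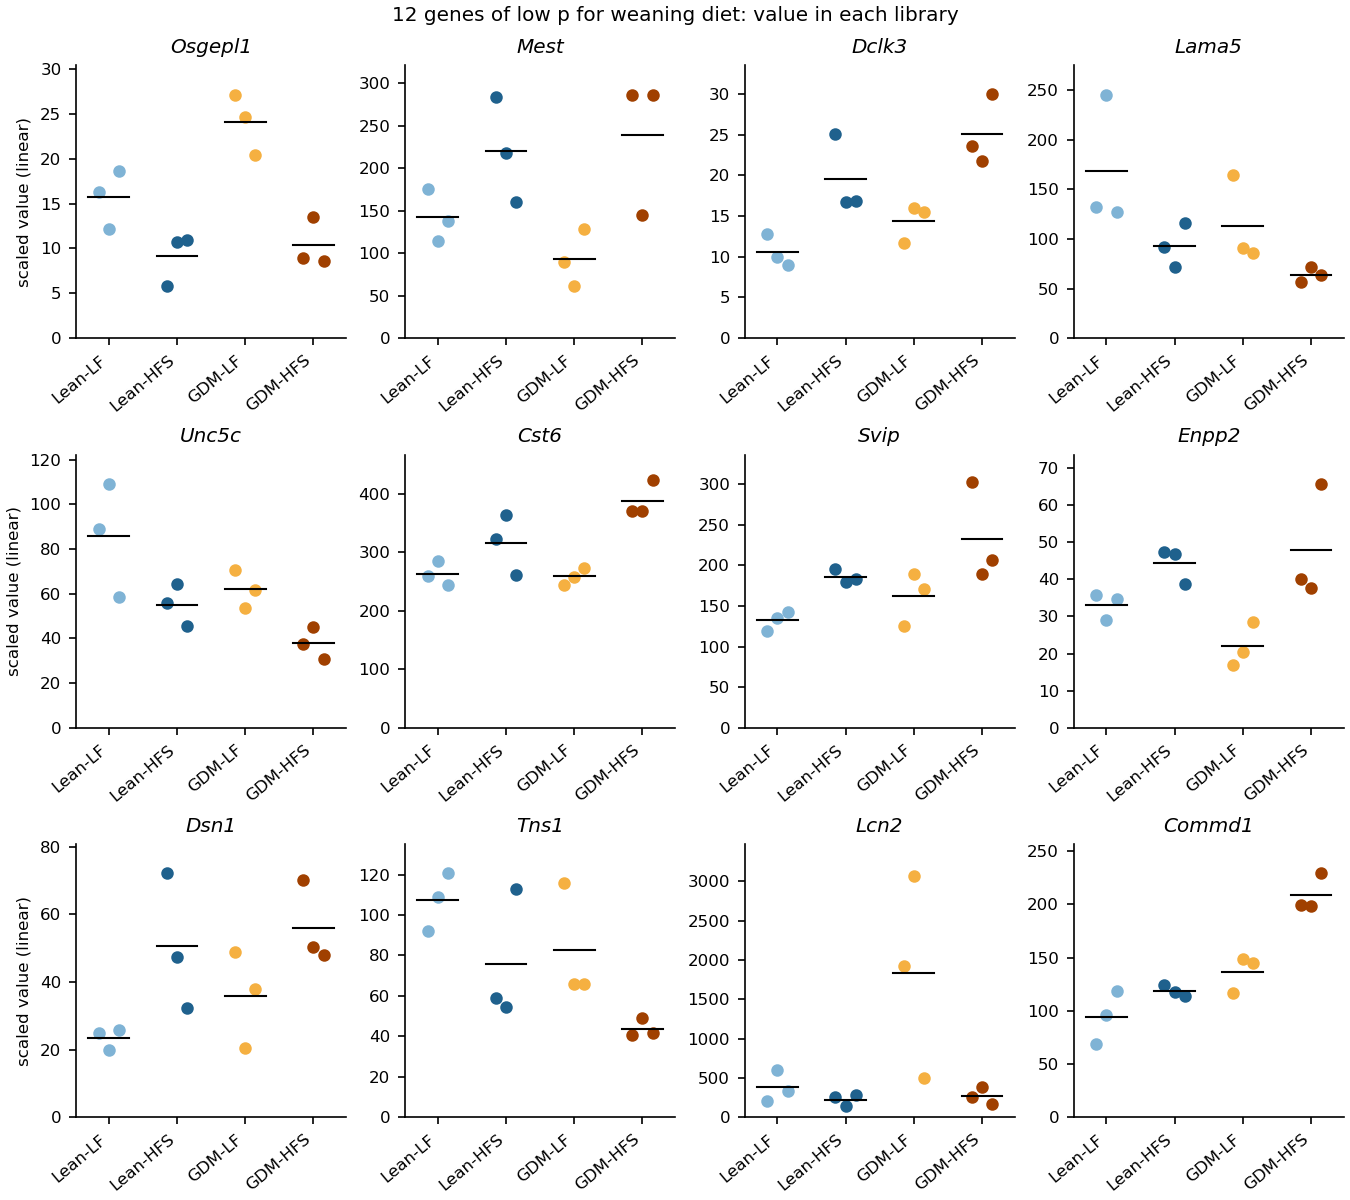
Scaled value (linear axis from 0) in each library for 12 of the 24 genes of low p with a shared sign, with 1 point per library, 3 libraries per group and a bar at the group mean. In Dclk3, Svip and Enpp2 the HFS points lie above the LF points of the same dam, in Osgepl1 and Lama5 they lie below, and none of the 12 had an adjusted p below 0.907 by limma.

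Among the genes with higher values on HFS were a secreted enzyme, a kinase and a gene of protein handling. The values given are scaled values, which are reads brought to a common depth and not divided by transcript length, and positions are on build rn5. Enpp2, for autotaxin, the secreted enzyme that makes lysophosphatidic acid (chromosome 7, 95120407 to 95202176), had LF values of 16.9 to 35.7, with a median of 28.8, and HFS values of 37.6 to 65.8, with a median of 43.6. Its log2 difference was 0.74 ± 0.207, with 0.41 in offspring of lean dams and 1.07 in offspring of GDM dams. Dclk3, a doublecortin-like kinase, ran from 8.97 to 16.0 on LF and from 16.7 to 30.0 on HFS, a log2 difference of 0.79 ± 0.199. Svip, an inhibitor of endoplasmic-reticulum-associated protein degradation, had a log2 difference of 0.50 ± 0.138. In GDM-LF it reached 188.9 and in GDM-HFS its lowest value was 189.0, so the groups nearly touched. None of these 3 genes passed the adjusted threshold.

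Mest, an imprinted gene expressed from the paternal allele and known as a marker of fat tissue expansion (chromosome 4, 57811101 to 57821888), had the largest log2 difference of the 14, 0.98 ± 0.240. Its values were 176, 114 and 137 in Lean-LF, 283, 218 and 160 in Lean-HFS, 89.6, 61.2 and 128 in GDM-LF and 286, 144 and 286 in GDM-HFS. The groups overlapped in offspring of lean dams, where Lean-HFS 3 was below Lean-LF 1, and did not in offspring of GDM dams. Cst6, a cystatin that inhibits cysteine proteases, had a log2 difference of 0.42 ± 0.114, and Dsn1, a kinetochore protein, of 0.85 ± 0.240. Both overlapped in the offspring of 1 kind of dam. Cnpy2, a protein of the endoplasmic reticulum, differed by 0.37 ± 0.110.

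A further 5 of the 14 act in mitochondria or in copper and superoxide handling. Sod1, the cytosolic superoxide dismutase, had a log2 difference of 0.52 ± 0.149. Its values were 1989, 1997 and 2697 in Lean-LF and 2838, 2829 and 2117 in Lean-HFS, which overlap, and 2298, 2330 and 2450 in GDM-LF and 4015, 4086 and 4348 in GDM-HFS, which are far apart. The difference between dams, 0.59 on the log2 scale, had an unadjusted p of 0.0411 and an adjusted p of 0.785 for interaction by limma. Cox17 and Commd1, which handle copper, differed by 0.43 ± 0.127 and 0.49 ± 0.139. Ndufa12, a subunit of respiratory complex I, and Ecsit, which assists the assembly of that complex, differed by 0.50 ± 0.15 and 0.46 ± 0.140.

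The 10 genes with lower values on HFS include genes of matrix, adhesion, signalling and mitochondrial proteins. Osgepl1, which modifies mitochondrial transfer RNA (chromosome 9, 52748479 to 52762415), measured 16.2, 12.2 and 18.6 in Lean-LF and 5.83, 10.7 and 10.9 in Lean-HFS. It measured 27.1, 24.7 and 20.4 in GDM-LF and 8.99, 13.5 and 8.65 in GDM-HFS. All HFS libraries except GDM-HFS 2 were below all LF libraries, and that library was above Lean-LF 2 only. The log2 difference was -0.95 ± 0.231. Lama5, a laminin chain of basement membranes (chromosome 3, 181517512 to 181565641), had 132, 245 and 127 in Lean-LF, 91.4, 72.0 and 116 in Lean-HFS, 164, 90.9 and 85.4 in GDM-LF and 56.6, 71.8 and 64.0 in GDM-HFS. It did not overlap within either dam and differed by -0.78 ± 0.205. Cpm, a membrane carboxypeptidase (chromosome 7, 60654168 to 60714583), ran from 18.1 to 28.4 on LF and from 6.92 to 17.9 on HFS, with no overlap over the 12 libraries and a log2 difference of -0.86 ± 0.257.

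The netrin receptor Unc5c differed by -0.65 ± 0.176, and Tns1, which links integrins to the cytoskeleton, by -0.71 ± 0.203. In Tns1 the library Lean-HFS 3, at 113, lay among the LF libraries. Igfbp5, which binds insulin-like growth factors, had a difference of -1.21 ± 0.346, made up of -0.57 in offspring of lean dams and -1.84 in offspring of GDM dams. Its GDM-LF values were 99.7, 122 and 29.1, and the last of these, in GDM-LF 3, was below GDM-HFS 2 at 31.2. Sphingosine kinase Sphk1 (-0.67 ± 0.199) overlapped in both kinds of dam. Tsc22d2 (-0.47 ± 0.141) and Elmsan1, of a histone deacetylase complex (-0.50 ± 0.143), overlapped in the offspring of 1 kind of dam each.

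Lcn2, a secreted siderophore-binding lipocalin and a known target of NF-kB, had the largest difference of the 24, -1.60 ± 0.454. Its values were 211, 600 and 330 in Lean-LF, 251, 136 and 282 in Lean-HFS, 1923, 3068 and 495 in GDM-LF and 255, 381 and 168 in GDM-HFS. The groups overlapped in offspring of lean dams (log2 -0.71) and did not in offspring of GDM dams (-2.49), where GDM-LF 1 and GDM-LF 2, both with K in the title, were the high ones. The difference between dams had an unadjusted p of 0.0443 and an adjusted p of 0.785 for interaction by limma.

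Named genes higher on HFS had shorter transcripts than those lower on HFS. The median transcript length was 1142.5 bases for the 14 and 4371 for the 10, against 1758 and 2606 for all tested genes with higher and lower values. Genes at an unadjusted p under 0.05 showed the same order, with medians of 1110 and 3378.5 bases. The median log2 deviation of 1333 short transcripts (under 1000 bases) from their means over the libraries, minus that of 1889 long ones (over 4000 bases), was -0.73 to 0.56 on LF and -0.31 to 0.74 on HFS. The HFS side was higher by 0.288 (exact permutation within dams, two-sided, p = 0.0950, adjusted p = 0.38 over 4 library measures), and by 0.395 without Lean-LF 3 (exact permutation p = 0.03). With any other single library left out the exact permutation p was 0.05 to 0.19. After a trend on length was removed in each library, 385 genes were at an unadjusted p under 0.05 and all 24 named genes kept their direction. The part of transcript length in the named genes was not tested further.

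The offspring of lean and of GDM dams used separate libraries on both diets, and each gave an estimate of the diet difference. In offspring of lean dams limma called 0 genes (0%) and 269 genes (2.18%) were at an unadjusted p under 0.05. In offspring of GDM dams it called 0 genes (0%), with 1188 (9.63%) at an unadjusted p under 0.05 and a lowest adjusted p of 0.469. Without GDM-LF 3 this comparison called 40 genes, 15 higher and 25 lower, and it called 0 without any other single library. In offspring of lean dams, 834 genes were at an unadjusted p under 0.05 without Lean-LF 3 and 155 without Lean-LF 1. The interaction called 0 genes (0%), with 730 (5.92%) at an unadjusted p under 0.05 and a lowest adjusted p of 0.785.

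Gene by gene the 2 estimates pointed the same way for 5924 of 12336 genes (48.0%). Across genes, which are not independent replicates, Pearson's r between them was -0.07 and Spearman's rho -0.06. Among the 5513 genes with a mean of 100 or more, 49.4% shared a sign. The SD of the log2 differences over genes was 0.36 in offspring of lean dams and 0.49 in offspring of GDM dams.

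**Figure D2:**
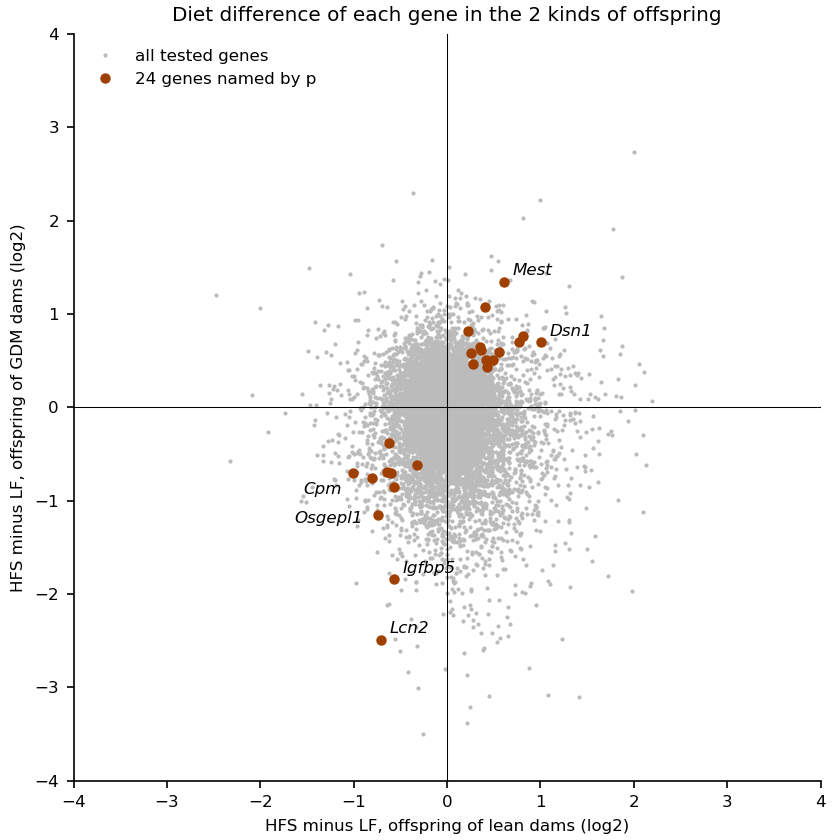
HFS minus LF log2 difference of each tested gene in offspring of lean dams (horizontal) and of GDM dams (vertical), with the 24 genes of lowest p in brown and some of them named. The grey cloud of 12335 genes has no slope (Pearson's r -0.07) and is taller than wide, and 1 gene lies outside the axes of 4 log2 units. The brown points sit off both axes because they were chosen by low p and a shared sign.

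Hormone genes were described by values in every library. Ppy, which encodes pancreatic polypeptide, measured 2012, 2985 and 2488 in Lean-LF and 4371, 17528 and 6317 in Lean-HFS, with no overlap. It measured 14026, 5459 and 18009 in GDM-LF and 8463, 26407 and 19150 in GDM-HFS, with overlap. The log2 difference over dams was 1.11 (95% interval 0.24 to 1.98). Sst, which encodes somatostatin, was at 914, 821 and 1052 in Lean-LF, 1244, 3131 and 1321 in Lean-HFS, 1495, 2173 and 1324 in GDM-LF and 1660, 1990 and 3069 in GDM-HFS. Its difference of 0.66 (0.15 to 1.16) again came with separated groups in offspring of lean dams only. Pyy, for peptide YY, made by PP and alpha cells, ran from 570 to 1692 on LF and from 1048 to 4133 on HFS and differed by 0.70 ± 0.234. The intervals of all 3 lay above 0 and the adjusted p of each was 0.907 by limma. They belong to the list of delta and PP cell markers, which divided 5 higher to 5 lower of 10 tested, with a median of 0.08. At an unadjusted p under 0.05 these 3 were higher and Sstr3, a somatostatin receptor, was lower (-0.38). This was 40% of the list, against 4.78% of all tested genes. Without GDM-LF 1 the list had 8 higher and 2 lower and a median of 0.24. Lean-HFS 2 held the highest Ppy and Sst values of the offspring of lean dams.

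The alpha cell hormone gene Gcg differed by 0.66 (-0.36 to 1.67) and the amyloid peptide gene Iapp by 0.09 (-0.42 to 0.59). Ins1 ran from 829546 to 1186730 on LF and from 861501 to 1505320 on HFS. It differed by 0.21 ± 1.69 by limma and by 0.21 ± 0.129 by DESeq2. Ins2 differed by 0.32 ± 1.10 by limma and by 0.33 ± 0.132 by DESeq2 (unadjusted p 0.0129, adjusted p 0.941). The limma SE of these genes was thus far wider than the spread of their values, and their limma p-values say little. Insulin transcripts took 29.4% of reads outside rRNA on average on the LF side and 31.9% on the HFS side. The difference of 2.54 percentage points had a p of 0.245 by the exact permutation test within dams (two-sided, adjusted p = 0.467 over 4 measures). The lowest library, GDM-LF 2 at 22.0%, was also the one with the highest acinar sum. Without the 3 libraries with K in the title the difference was -0.614 points, and without GDM-LF 3 it was 3.91 points (exact permutation p = 0.0350). With any other single library left out the exact permutation p was 0.07 to 0.465. Of the 17 hormone and granule genes, 16 had higher values on HFS and 1 lower, with a median log2 difference of 0.29 against -0.01 for all tested genes (6024 higher, 6312 lower). Transcripts of this list are short, with a median of 1044 bases against 2118 for all tested genes. The part of length in these values was not tested. None of the 17 was past the threshold, and 4 (23.5%) were at an unadjusted p under 0.05, against 4.78% of all tested genes.

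Genes by which beta cells hold their identity and sense glucose had medians of opposite sign in the 2 kinds of offspring. Of 23 tested, 15 were higher and 8 lower on HFS, with a median of 0.08, made up of -0.17 in offspring of lean dams and 0.33 in offspring of GDM dams. The median was -0.02 without GDM-LF 2 and -0.08 without the K libraries, so its sign depended on these libraries. In the deposited values without rescaling it was -0.06, where the median of all tested genes was -0.14. Slc2a2, the glucose transporter of rodent beta cells, differed by -0.31 in offspring of lean dams and 0.64 in offspring of GDM dams, and the transcription factor genes Pdx1 by -0.21 and 0.34 and Nkx6-1 by -0.16 and 0.34. Their intervals over dams included 0 and lay within 2-fold in either direction. Trpm5, a cation channel of glucose-stimulated secretion, was the gene of the list with the lowest p, at -0.53 ± 0.210.

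Genes of fat handling gave mostly small differences over dams. Among 37 tested genes of fatty acid oxidation and targets of PPAR nuclear receptors, 22 were higher and 15 lower, with a median of 0.05. At an unadjusted p under 0.05 there were 2 (5.41%), against 4.78% of all tested genes. Cpt1a, which admits fatty acids to mitochondria, measured 145, 212 and 121 in Lean-LF, 142, 122 and 191 in Lean-HFS, 198, 251 and 122 in GDM-LF and 129, 152 and 138 in GDM-HFS, with mixed groups and a difference of -0.22 (-0.63 to 0.19). Pdk4, the kinase that holds back pyruvate oxidation, differed by -0.14 (-0.91 to 0.62), and Plin2, the coat protein of lipid droplets, by -0.23 (-0.61 to 0.15). Angptl4, an inhibitor of lipoprotein lipase, differed by -0.51 (-1.71 to 0.69) over dams. Its values had opposite signs, 0.58 in offspring of lean dams and -1.60 in offspring of GDM dams. The difference between dams had an unadjusted p of 0.0474 and an adjusted p of 0.785 for interaction by limma. Over dams, a difference of 2-fold was within the interval for Angptl4 and outside it for Cpt1a, Pdk4 and Plin2.

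Genes of fatty acid and triglyceride synthesis divided evenly, 13 higher and 13 lower of 26, with a median of 0.00. Fasn, the fatty acid synthase, differed by -0.11 (-0.56 to 0.33), Acaca, which makes malonyl-CoA, by -0.01 (-0.33 to 0.30) and Scd2, a desaturase, by 0.12 (-0.31 to 0.56). Mlxipl, which encodes the glucose-responsive transcription factor ChREBP, was at 110, 188 and 122 in Lean-LF and 100, 72.8 and 58.3 in Lean-HFS, with no overlap, and at 114, 34.5 and 111 in GDM-LF and 88.3, 43.9 and 39.2 in GDM-HFS. The lowest of the 12 was GDM-LF 2 on LF diet. The difference of -0.67 (-1.31 to -0.03) had an unadjusted p of 0.0405 and did not pass. Lpin1, of triglyceride synthesis, and Fads3, of the desaturase family, were also lower at an unadjusted p under 0.05, by -0.52 and -0.48. Srebf1, the master transcription factor of lipid synthesis, differed by 0.13 (-0.32 to 0.57).

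Cholesterol synthesis and uptake had 22 higher and 7 lower of 29 tested genes, with a median of 0.08 and 1 gene, Pmvk of the mevalonate pathway (0.46 ± 0.184), at an unadjusted p under 0.05. Glycolytic and glucose-responsive genes were higher in 19 and lower in 7 of 26, with a median of 0.13 that was -0.02 without the K libraries. Without rescaling it was -0.01, against -0.14 for all tested genes. Txnip, which glucose strongly induces in beta cells, was at 3070 in GDM-LF 2 and between 264 and 1158 in the other 11 libraries, and differed by 0.02 (-1.01 to 1.05). The unfolded protein response had 17 higher and 17 lower of 34 genes and a median of 0.00. Its chaperone Hspa5 differed by 0.18 (-0.38 to 0.73) and the stress factor Ddit3 by 0.08 (-0.38 to 0.55).

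**Figure D3:**
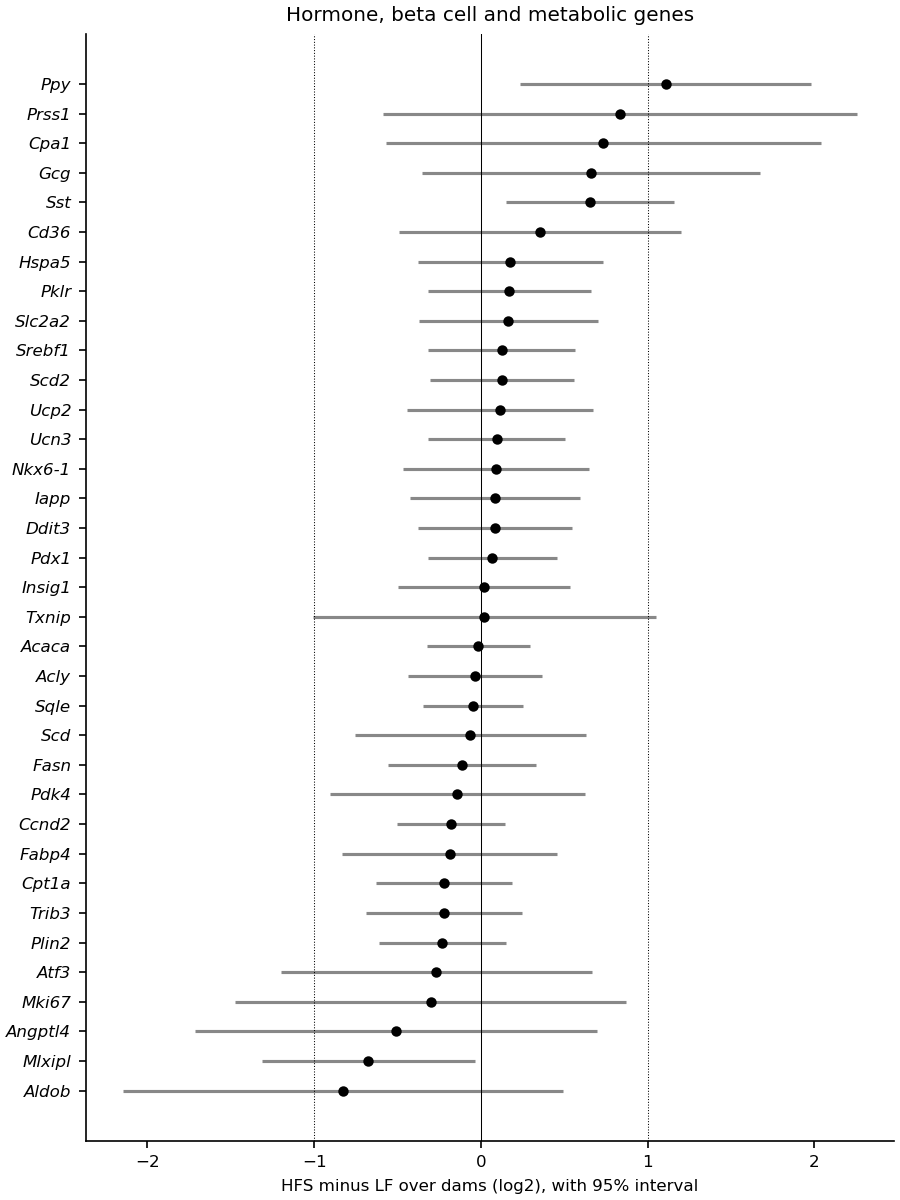
HFS minus LF log2 difference over dams with its 95% interval (limma) for 35 hormone, beta cell and metabolic genes, with dotted lines at a 2-fold difference. Only the intervals of Ppy, Sst and Mlxipl exclude 0, none of the 35 passes after adjustment over all genes, and 23 intervals lie within 2-fold. Ins1 and Ins2 are left out for limma intervals wider than 3 log2 units, which exceed the spread of their values between libraries.

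Of the 63 tested genes of oxidative phosphorylation, 24 (38.1%) were at an unadjusted p under 0.05, against 4.78% of all tested genes. All 63 had higher values on HFS, with a median of 0.28, or 0.24 in offspring of lean dams and 0.33 in offspring of GDM dams. No member was past the adjusted threshold. Cox5b, a subunit of cytochrome c oxidase, was at 573, 537 and 930 in Lean-LF, 850, 835 and 752 in Lean-HFS, 936, 1143 and 836 in GDM-LF and 1369, 1256 and 1444 in GDM-HFS, a difference of 0.39 ± 0.140. Cox6a1 of the same complex differed by 0.36 ± 0.118. Within offspring of lean dams the library Lean-LF 3 lay above all 3 Lean-HFS libraries in Cox5b and in the mean level of the list. Without it 50 members were at an unadjusted p under 0.05, still with none past adjustment. The count over all tested genes also rose without this library, as given above.

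The transcripts of this list are short, with a median of 677 bases against 2118 for all tested genes. Members under 1000 bases were among the short transcripts of the measure given above, so the list and that measure are not independent. With the length trend removed the median was 0.12, with 59 higher, 4 lower and 2 at an unadjusted p under 0.05. In the deposited values without rescaling it was 0.14, against -0.14 for all tested genes, with 60 higher, 3 lower and 0 at an unadjusted p under 0.05. Cytosolic ribosomal proteins, with a median length of 595 bases, were likewise higher in all 77 genes (median 0.29), and in 70 of 77 (median 0.11) with the length trend removed. Only 4 of the 77 (5.19%, against 4.78% of all tested genes) were at an unadjusted p under 0.05, among them Rpl36 (0.49 ± 0.177). That count was 37 without GDM-LF 2 and 31 without Lean-LF 3, and in both settings the count over all tested genes rose as well. Ribosomal protein genes have many near-identical copies that can share reads, so single genes of the list are uncertain.

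Cytokine and NF-kB target genes had lower values on HFS in all 33 tested members, with a median of -0.74, and the 2 kinds of offspring differed in sign, with 0.31 in offspring of lean dams and -1.80 in offspring of GDM dams. Ptgs2, the inducible cyclooxygenase, measured 52.2, 86.5 and 73.1 in Lean-LF, 48.8, 34.6 and 85.6 in Lean-HFS, 254, 628 and 142 in GDM-LF and 24, 114 and 70.9 in GDM-HFS. All 3 GDM-LF libraries were high and the other 9 low, with GDM-LF 2 the highest. Nos2, the inducible nitric oxide synthase, had values of at most 23.7 and differed by -2.61 in offspring of GDM dams and by -0.51 in offspring of lean dams. None of the 33 passed in the comparison over dams. At an unadjusted p under 0.05 there were 6 (18.2%), against 4.78% of all tested genes. Without GDM-LF 2 the median over dams was -0.31 with 8 higher and 25 lower, and without the K libraries -0.19 with 11 higher and 22 lower. GDM-LF 2 was also the library with the highest acinar sum, and the part of that in these values was not tested.

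Interferon response genes had 2 higher and 31 lower of 33, with a median of -0.37, or 0.16 and -0.73 in offspring of lean and of GDM dams. Without GDM-LF 2 the median was -0.02, with 15 higher and 18 lower. Ifi27, an interferon-inducible mitochondrial protein, pointed the same way in both, at -0.40 and -0.62, and Stat2, which carries the interferon signal to the nucleus, at -0.36 and -0.44. Both were at an unadjusted p under 0.05 and did not pass. Immediate early genes had 5 higher and 25 lower of 30, with a median of -0.28, again with opposite signs in the 2 kinds of offspring (0.17 and -0.83). Their mean log2 level was 8.15 in GDM-LF 2 and 5.86 to 6.43 in the other 11 libraries. Without GDM-LF 2 the median was -0.04, with 13 higher and 17 lower, and without the K libraries it was 0.03, with 16 higher and 14 lower.

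Antioxidant genes divided 15 to 15 with a median of 0.01. Sod1 was the member of lowest p, and Slc7a11, the cystine transporter that supplies glutathione synthesis, differed by -0.37 ± 0.168. Cell cycle genes were higher in 14 and lower in 24 of 38, with a median of -0.11 that was 0.27 without the K libraries. Aurkb, a mitotic kinase, had values of 1.83 to 8.28 on LF and 0 to 2.36 on HFS, did not overlap within either dam, and differed by -1.03 ± 0.361. In offspring of lean dams its groups nearly touched, at 1.828 in Lean-LF 3 and 1.821 in Lean-HFS 3. Cdkn2a, an inhibitor of beta cell replication, ran from 0.38 to 4.77 on LF and from 1.82 to 6.35 on HFS, with overlap, and differed by 1.04 ± 0.410. A value of 1 stands for a few reads, so both rest on few reads per library. Mki67, a marker of dividing cells, was at 63.2 in GDM-LF 1 and between 3.49 and 11.5 elsewhere. Insulin and IGF signalling had 9 higher and 22 lower of 31, with a median of -0.11, and Foxo3, a transcription factor restrained by insulin, differed by -0.55 ± 0.207.

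**Figure D4:**
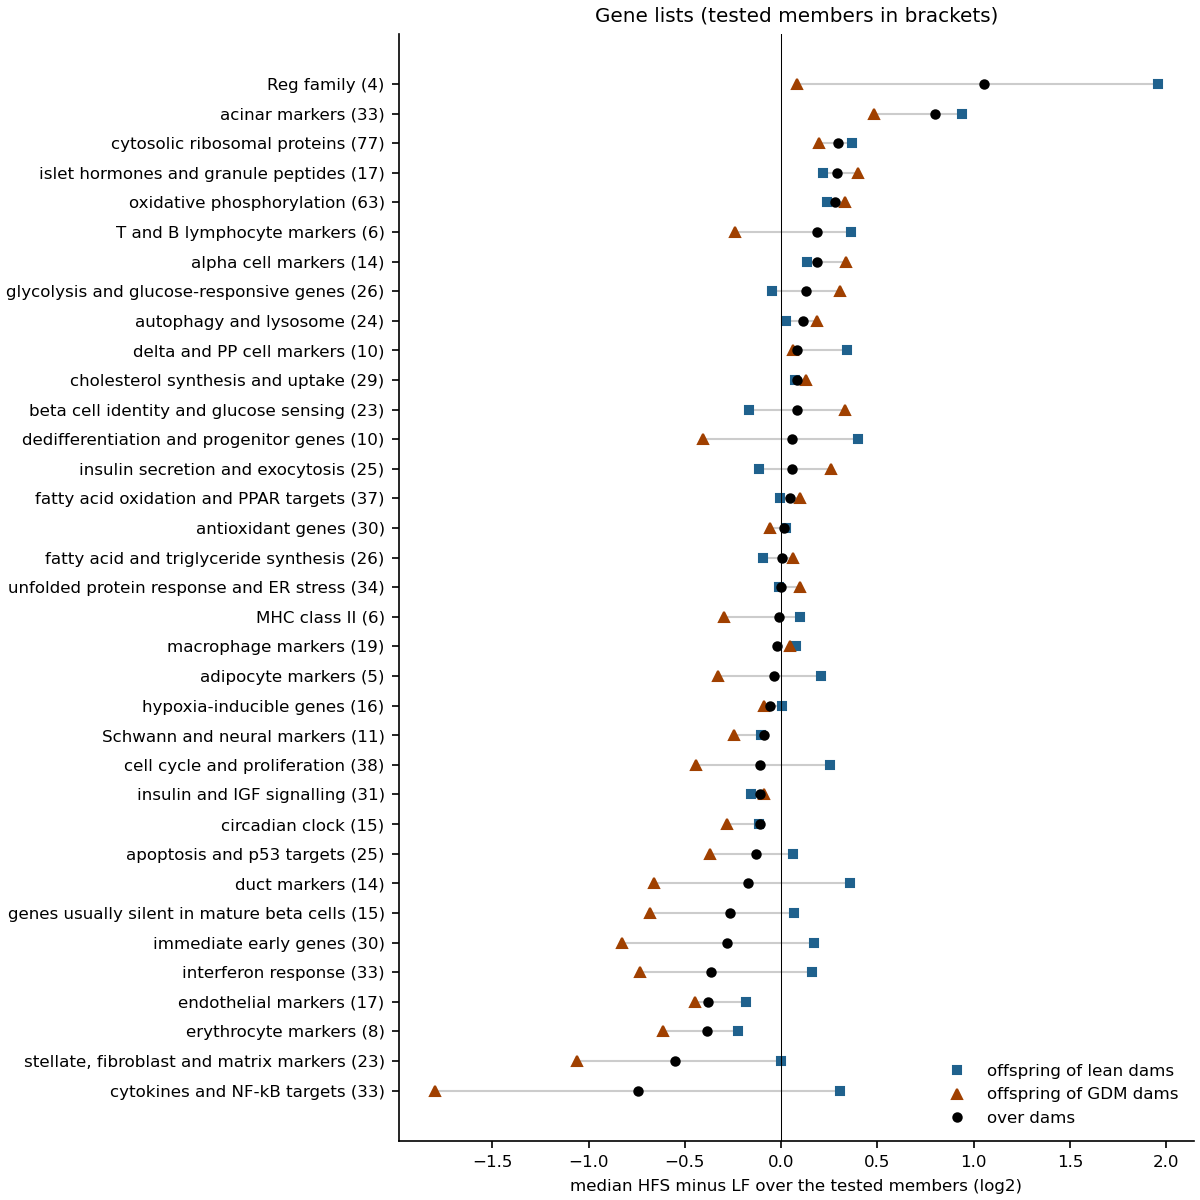
Median HFS minus LF log2 difference over the tested members (number in brackets) of each of 35 gene lists, in offspring of lean dams (squares), of GDM dams (triangles) and over dams (circles). In 19 of the 35 lists the square and the triangle lie on opposite sides of 0, most widely for cytokines and NF-kB targets (0.31 and -1.80), and no list has a gene past the threshold.

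Markers of non-endocrine cells varied widely between libraries. Of 35 acinar markers 33 were tested, 30 higher and 3 lower on HFS, with a median of 0.80, and none was listed at 0 in all libraries. These markers had a median transcript length of 898 bases, against 2118 for all tested genes. Their sums ran from 33045 to 94847 in Lean-LF, 50489 to 275593 in Lean-HFS, 45714 to 814079 in GDM-LF and 127712 to 262960 in GDM-HFS. The trypsin gene Prss1 was at 4539, 13610 and 7195 in Lean-LF, 9609, 6165 and 44271 in Lean-HFS, 6152, 100089 and 5929 in GDM-LF and 24216, 17840 and 46147 in GDM-HFS. The high libraries were GDM-LF 2, Lean-HFS 3 and the 3 GDM-HFS libraries. Without GDM-LF 2 all 33 markers were higher on HFS, with a median of 1.39 and 28 at an unadjusted p under 0.05, and none was past adjustment. The count over all tested genes also rose in that setting. With the mean acinar level as a covariate the comparison over dams called 0 genes, with a lowest adjusted p of 0.16. Trypsin genes are near-identical copies and are uncertain as single genes.

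Stellate, fibroblast and matrix markers had 2 higher and 21 lower of 23, with a median of -0.55, which was -0.15 without GDM-LF 1, the library with the highest mean level of the list. Endothelial markers had 2 higher and 15 lower of 17, with a median of -0.38. Tek, Kdr and Cdh5, the receptors and the junction protein of vessel walls, differed by -0.66, -0.57 and -0.57, each at an unadjusted p under 0.05. Without GDM-LF 1, where the count over all tested genes fell too, 0 members were at that level. Macrophage markers divided 9 to 10 with a median of -0.02.

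**Figure D5:**
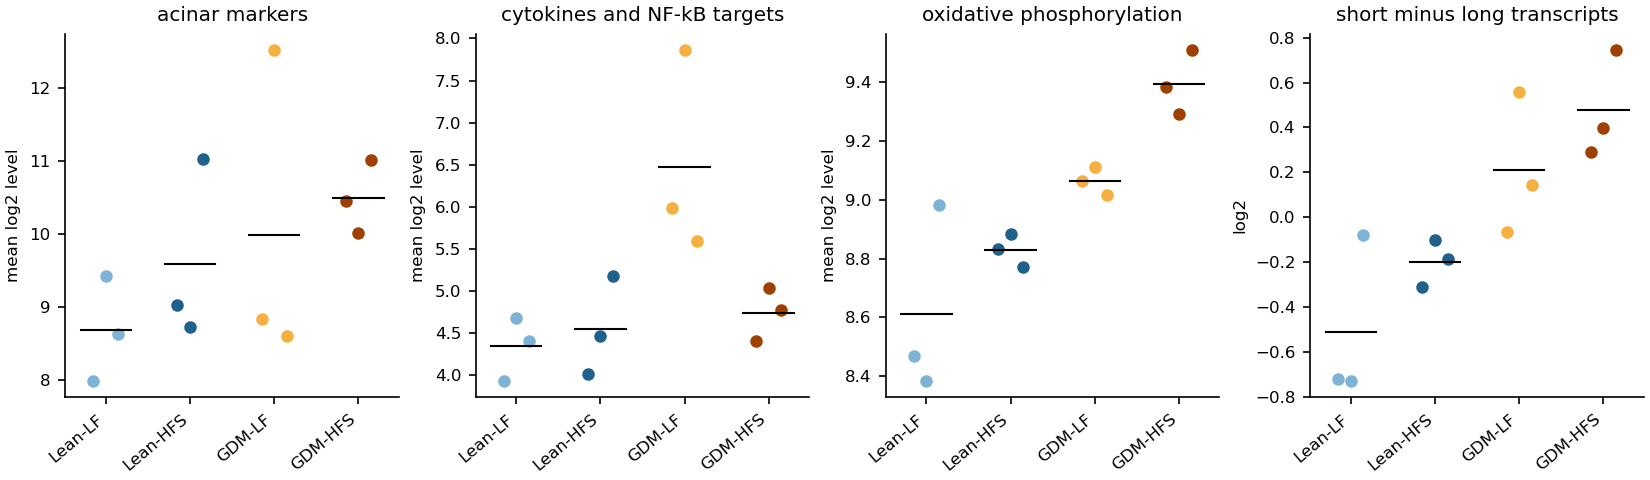
Mean log2 level of acinar markers, cytokine and NF-kB targets and oxidative phosphorylation genes, and the level of short minus long transcripts (log2), in each library, with a bar at the mean of the 3 libraries of a group. GDM-LF 2 stands highest in the first and second panels, and Lean-LF 3 stands above the Lean-HFS libraries in the third and the fourth.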

How the data were processed

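Islet RNA of 12 offspring was sequenced after depletion of rRNA, per the labels' protocols. The submitters' processing notes name STAR 2.5.1b, HOMER 4.9 and, with no version, DESeq2. HOMER summed exonic reads of both strands into 1 entry per gene on build rn5, per the file headers, so overlapping and antisense genes cannot be told apart. The deposited table holds a depth-scaled signal. Although its header says FPKM, no division by length was found: within a library all values are whole multiples of 1 step (100% of values up to 1000 reads, within 0.1 of a read), and 1 unit equals 1.96 to 5.02 reads. The transcript length column was deposited by the authors in bases. The command in the header lists the libraries in another order within groups than the columns do, which leaves the groups as labelled.

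Libraries were brought to a common scale by the median of their ratios to the geometric mean of each gene (factors 0.83 to 1.27). The 3 rRNA entries, which held 1.84% to 39.0% of reads, were left out of tests. limma 3.58.1 (R 4.3.3) modelled log2(scaled value + 1) on the dam and the weaning diet, for genes whose mean scaled value reached 1, with a mean-variance trend and Benjamini-Hochberg adjustment over all tested genes (threshold 0.05, two-sided). Adding 1 understates differences of genes with low values. Differences within each kind of dam and the interaction came from a fit with 1 mean per group. edgeR 4.0.16 (quasi-likelihood) and DESeq2 1.42.0 were run on the recovered reads, and genes without an adjusted p from DESeq2 were not counted. Library measures were tested by exact permutation within dams (400 arrangements, smallest p 0.005). The additive limma fit over dams was tested on simulated reads with the same dispersion for all genes. The other fits were not tested on simulated data.

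As no gene passed, the genes named are the 24 of lowest p over dams whose difference had the same sign in both kinds of offspring, leaving out provisional symbols and small RNA hosts. Further genes named are a set of 42 hormone, beta cell and metabolic genes (41 tested, G6pc2 was not matched and is not analysed here) and, in the lists described, up to 3 members of lowest p. Some genes that these rules take are not reported here. The 35 lists and the genes were chosen with earlier results of these data known. Alternatives changed the scaling, pseudocount, filter, variance trend, library weights, length trend, covariates and tools, and left out each library.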

Additional observations from a re-analysis of the deposited data

Results flagged for a closer look

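Among 138 sets of 6 libraries on 1 diet, 11 held a library far from the other 5, measured by its gap to the nearest of them relative to the whole range. For genes the gap and the range were taken on log2(scaled value + 1), while the values printed below are scaled values. Chance flags about 1 in 20 such sets. GDM-LF 2 stood apart on the LF side in 4 genes: Txnip at 3070 (others 328 to 553), Atf3, a stress-induced transcription factor, at 962 (73.8 to 151), Prss1 at 100089 (4539 to 13610) and Mlxipl at 34.5 (110 to 188). Mki67 was 63.2 in GDM-LF 1 (3.49 to 10.9 in the other LF libraries).

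Lean-HFS 1 stood apart on the HFS side in 3 genes of fat handling: Scd, a desaturase, at 165 (42.4 to 62.0), Srebf1 at 661 (288 to 372) and Fabp4, a fatty acid carrier, at 12.1 (39.3 to 63.4). On LF diet Lean-LF 1 had similar values of Scd (151) and Srebf1 (715), and the lowest Fabp4 value was 20.9. Svip was 302 in GDM-HFS 1 (180 to 207) and Tns1 was 113 in Lean-HFS 3 (40.4 to 59.1). The rRNA share of Lean-LF 2 was 30.4% (1.84% to 11.3% in the other LF libraries).

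The rRNA share was also flagged for a difference between dams in its relation to the diet. In offspring of lean dams it averaged 14.5% ± 14.5 (SD, n = 3) on LF diet and 31.7% ± 7.14 on HFS diet, and in offspring of GDM dams 7.97% ± 0.844 on LF diet and 2.91% ± 1.29 on HFS diet. The diet difference in offspring of GDM dams minus that in offspring of lean dams was -22.2 percentage points (exact permutation p = 0.0350, two-sided, adjusted p = 0.14 over 4 library measures). Diet labels were exchanged within each dam, which assumes no diet difference in either kind of offspring. The p is therefore not a test of the difference between dams alone. The unadjusted p by the same exact permutation test was 0.15 without Lean-HFS 1, 0.145 without Lean-HFS 2, 0.0750 without Lean-HFS 3, 0.0700 without Lean-LF 3, 0.0600 without Lean-LF 1 and 0.05 without the K libraries. By the same exact permutation test the unadjusted p was 0.005 without Lean-LF 2 and 0.03 to 0.045 without any single library of GDM dams. The difference between dams thus does not pass after adjustment, and its unadjusted p depended on single libraries of lean dams. Over dams the difference was 6.05 points (exact permutation p = 0.350), or 2.88 points without Lean-LF 3 and 10.0 without Lean-LF 2.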

How the results depend on the processing

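The comparison over dams called 0 genes in limma under every scaling, pseudocount, filter, weighting, covariate and left-out library tried, and in edgeR. DESeq2 called 2. The genes at an unadjusted p under 0.05 ranged from 320 (without GDM-HFS 3) to 1049 (library weights), and to 1521 without both GDM-LF 2 and Lean-LF 3, a setting chosen after seeing the data, where the lowest adjusted p was 0.101. Under all settings the 24 named genes kept their direction. Leaving out 1 library gave 0 to 40 called genes in offspring of GDM dams and 0 in offspring of lean dams and for the interaction. Without rescaling the median log2 difference of all genes was -0.14 over dams, -0.35 in offspring of lean dams, 0.07 in offspring of GDM dams and 0.42 for the interaction.

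Deviations from the group means were correlated between LF and HFS libraries of the same dam. In offspring of lean dams same-numbered replicates gave -0.17 to 0.20 and other pairs -0.30 to 0.12. In offspring of GDM dams the same-numbered gave -0.08 to 0.07 and other pairs -0.06 to 0.14. Not every library was closest to its own number, and with 3 libraries per group these values do not settle whether replicates were paired. With the replicate number as a block limma called 0 genes over dams (498 at an unadjusted p under 0.05), 0 within either kind of dam and 0 for the interaction.

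The insulin share difference was -0.614 points without the K libraries and 0.81 to 3.91 with 1 library left out. The difference in reads outside rRNA was -1968720 and ranged from -3899260 to 296849 with 1 library left out, being above 0 without Lean-LF 3 and without GDM-HFS 3 (95770). The rRNA share difference ranged from 2.88 to 10.0 points. That in short minus long transcripts ranged from 0.218 to 0.395. The depth limits genes with a mean below 10, where 27.5% of intervals lay within 2-fold.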

Other observations

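Fam111a, a gene of a protease that acts in DNA replication and antiviral defence, was chosen here after its values were seen (chromosome 1, 236163691 to 236179257, build rn5). Its scaled values were 2.66, 1.74 and 2.33 in Lean-LF and 15.8, 4.77 and 5.83 in GDM-LF. On HFS diet they were 3.59, 4094 and 5.92 in Lean-HFS and 4.49, 3477 and 2086 in GDM-HFS. It was thus near its LF level in 3 of the 6 HFS libraries and at 2086 or more in the other 3, which came from both kinds of dam, and no LF library was above 15.8. By limma the log2 difference was 4.63 ± 1.65 with an unadjusted p of 0.0139 and an adjusted p of 0.907. By DESeq2 it was 8.48 ± 1.35 with an adjusted p of 4.1e-06, and by edgeR 8.35 with an adjusted p of 0.932. The next genes on the same side, Glyatl1, Glyat and Olr338, had 0 to 2 reads in every library. The 3 high libraries included both kinds of dam and both title letters.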
